A study of Arabidopsis thaliana with 12 samples.

Results

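The greening genes described here are HEMA2, CHLM and PORB of chlorophyll synthesis, LHB1B2 and LHCB4.1 of light harvesting, and RCA, which activates Rubisco. They were chosen by name, through the pairing of the array's probe sets with genes, and each was read by 1 probe set of its own. They are 6 of the genes behind 17481 tested probe sets. Expression was measured in Arabidopsis thaliana, ecotype Col-0, on 12 Affymetrix Gene 1.0 ST arrays with RNA of pooled whole seedlings. The 4 groups of 3 arrays were rb10 after light, rb10 in the dark, WT after light and WT in the dark. All seedlings were kept dark for 5 days on reduced-strength MS medium lacking sucrose, and those of the light groups then had 1 h of white light. The labels give rb10 by name only. It is known from the study as a mutant of RAPTOR1B (RAPTOR1 in current annotation), the protein that brings substrates to the growth kinase TOR. The study's title asks how TOR inhibition affects greening after long etiolation.

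A seedling germinated in the dark builds etioplasts, plastids that hold the chlorophyll precursor protochlorophyllide but no chlorophyll. In flowering plants the step from protochlorophyllide to chlorophyllide needs light, and it is carried out by the protochlorophyllide oxidoreductases, the POR enzymes. Light also switches on nuclear genes of the antenna proteins that bind chlorophyll and of the Calvin cycle, in which Rubisco fixes carbon dioxide. Unbound precursor produces singlet oxygen in the light, so seedlings keep its supply and the amount of POR enzyme in balance.

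The array labelled rb10 dark replicate 3 went against its label. RAPTOR1 read 10.89 to 11.13 in rb10 after light, 11.06, 11.08 and 11.60 in rb10 in the dark (the last on that array), 11.58 to 11.69 in WT after light and 11.63 to 11.84 in WT in the dark, all as log2 signal. Where its probes lie relative to any insertion is not given. Across the tested probe sets that array correlated at 0.9909 on average with the WT dark arrays and at 0.9796 with the other arrays labelled rb10 dark. Of the 6 greening genes, 5 lay inside the range of the WT dark arrays on it, and RCA did not. Every result is therefore given from all 12 arrays and, where stated, from the 11 arrays without it. The array was doubted for its likeness to WT in the dark, in part on these same genes. Leaving it out thus favours larger differences between rb10 in the dark and WT in the dark. It also changes the light effect in rb10 and, as the spread is pooled over groups, the standard errors of the other comparisons. For genotype after light no compared array changed, yet the median standard error over all probe sets went from 0.174 to 0.161. Probe sets with an adjusted p under 0.05 in the limma fit described below went there from 3355 to 4120. The 11-array p-values do not account for this choice. Array medians were 6.88 to 6.91 in rb10 after light, 6.78 to 6.91 in rb10 in the dark, 6.72 to 6.76 in WT after light and 6.76 to 6.82 in WT in the dark. The 3 measured reference genes TIP41L, SAND and UBC21 differed by -0.19 to 0.11 between light and dark in rb10, and by less in the other comparisons of groups. Of markers of other cell types, only 3 of 5 stomatal lineage genes and none of 8 root or 5 seed storage genes could be paired. The labelled tissue was thus checked only by the antenna genes themselves. The stomatal markers' summed linear signal was 236.8 to 373.6 in rb10 after light, 375.6 to 444.8 in rb10 in the dark, 163.1 to 226.5 in WT after light and 369.9 to 442.5 in WT in the dark. These markers did not move evenly. In mean log2 signal after light, SPCH was 1.24, MUTE 0.69 and FAMA 0.04 higher in rb10 than in WT. In the limma fit described below only the SPCH difference passed (adjusted p = 0.00261), and those of MUTE (adjusted p = 0.352) and FAMA (adjusted p = 0.958) did not. The part of the stomatal markers in the results below was not tested. In bulk RNA, fewer cells of a type and less RNA per cell cannot be told apart.

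Differences below are log2 signal differences from a limma fit, each with its standard error (SE), and p-values are adjusted by Benjamini-Hochberg over all 17481 probe sets. A difference passed at an adjusted p under 0.05. The genes did not move as a block. PORB and CHLM fell with light in rb10, HEMA2 rose with light in WT, and RCA rose with light in both genotypes. The HEMA2 rise passed in only 7 of 19 alternative settings and the CHLM fall in 8 of 19. With all arrays, the light effects of the genotypes did not differ by the test for any of these genes. Without the array labelled rb10 dark replicate 3 they did for PORB alone (adjusted p = 0.0239). After light, HEMA2 and CHLM were lower and RCA higher in rb10 than in WT.

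**Figure D1:**
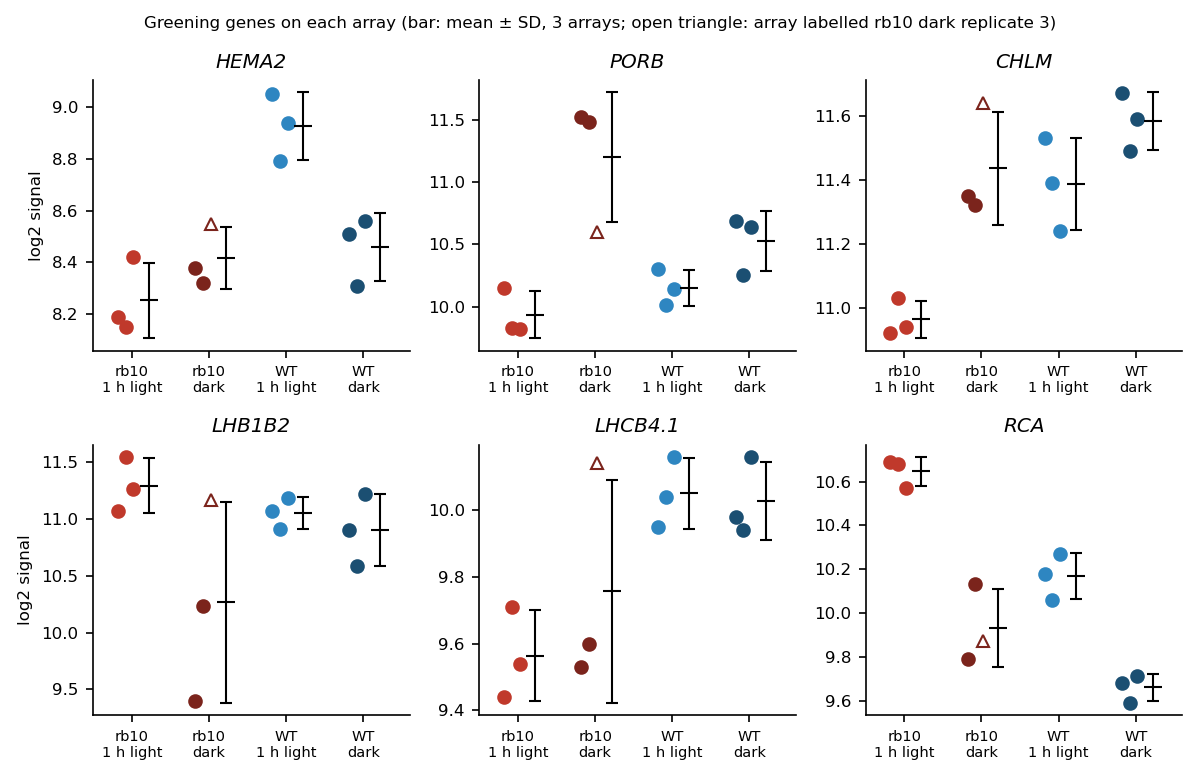
Log2 signal of the 6 greening genes on each of the 12 arrays (points) in 4 groups, with mean ± SD of the 3 arrays beside them; the open triangle is the array labelled rb10 dark replicate 3. PORB reads 11.52 and 11.48 on the other arrays labelled rb10 dark and at most 10.69 elsewhere, and RCA is highest in rb10 after light.

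HEMA2 (AT1G09940) encodes a glutamyl-tRNA reductase, the enzyme that commits glutamate to tetrapyrroles, from which both chlorophyll and haem are made. Its sister gene HEMA1, the main form in green tissue, was not among the paired genes. HEMA2 read 8.19, 8.15 and 8.42 in rb10 after light and 8.38, 8.32 and 8.55 in rb10 in the dark. It read 9.05, 8.79 and 8.94 in WT after light and 8.51, 8.31 and 8.56 in WT in the dark. The WT light arrays stood above every other array, and the other 3 groups overlapped their neighbours in order. HEMA2 rose with light in WT by 0.47 (SE 0.12, adjusted p = 0.0404), which is 1.39-fold. That call was lost on leaving out any one of 9 arrays, most clearly WT light replicate 1 (0.41, adjusted p = 0.149) and WT dark replicate 2 (0.39, adjusted p = 0.147), with quantile normalization repeated (adjusted p = 0.0631), when only the WT groups were fitted (adjusted p = 0.078) and with every probe set tested (adjusted p = 0.0511), but it held with the 11 arrays (adjusted p = 0.0313). In rb10 the light difference was -0.16 (SE 0.12, adjusted p = 0.524). After light HEMA2 was lower in rb10 than in WT by -0.67 (SE 0.12, adjusted p = 0.00372), and this passed under all 19 alternatives. In the dark the genotypes differed by -0.04 (95% interval -0.31 to 0.22). The test of whether light acted differently in the 2 genotypes gave -0.63 (SE 0.17, adjusted p = 0.103) and did not pass.

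CHLM (AT4G25080) encodes the methyltransferase that acts on magnesium protoporphyrin IX, further along the chlorophyll branch. It read 10.92, 11.03 and 10.94 in rb10 after light and 11.35, 11.32 and 11.64 in rb10 in the dark. It read 11.53, 11.39 and 11.24 in WT after light and 11.67, 11.49 and 11.59 in WT in the dark. The rb10 light arrays lay below all others, while the other 3 groups overlapped. With light CHLM fell in rb10 by 0.47 on the log2 scale (SE 0.12, adjusted p = 0.0363). This call was lost with the 11 arrays (-0.37, adjusted p = 0.0958), with each rb10 light array left out in turn (adjusted p from 0.0768 to 0.103), with array medians made equal (adjusted p = 0.0607) and when only the rb10 groups were fitted (adjusted p = 0.128). It was also lost without rb10 dark replicate 1, WT light replicate 2 or WT dark replicates 2 or 3 (adjusted p from 0.051 to 0.0574). In WT the light difference was -0.20 (SE 0.12, adjusted p = 0.423). After light CHLM was lower in rb10 than in WT by -0.42 (SE 0.12, adjusted p = 0.03), or 1.34-fold, and adjusted p = 0.0126 with the 11 arrays. That call was lost without any one of the rb10 light arrays or without WT light replicates 1 or 2 (-0.35 to -0.46, adjusted p from 0.0586 to 0.108). In the dark the difference was -0.15 (adjusted p = 0.592), and -0.25 (adjusted p = 0.202) with the 11 arrays.

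PORB (AT4G27440) encodes one of the light-dependent protochlorophyllide oxidoreductases, present in etioplasts and kept in green leaves. Its log2 signal was 10.15, 9.83 and 9.82 in rb10 after light, and 11.52, 11.48 and, on the doubted array, 10.60 in rb10 in the dark. It was 10.30, 10.01 and 10.14 in WT after light and 10.69, 10.25 and 10.64 in WT in the dark. Apart from the doubted array, the rb10 dark arrays stood above every other array, and both light groups overlapped. PORB fell with light in rb10 by 1.27 on the log2 scale (SE 0.23, adjusted p = 0.00708), which is 2.41-fold. That difference was larger than for 97.9% of all probe sets. Without the doubted array it fell by 1.57 (SE 0.16, adjusted p = 0.000381), or 2.96-fold. Among the alternatives the call was lost only when nothing but the rb10 arrays was fitted (adjusted p = 0.0626). In WT the light difference was -0.38 (SE 0.23, adjusted p = 0.437), with overlapping arrays.

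In the dark PORB was 0.67 higher in rb10 than in WT with the labels as given (SE 0.23, adjusted p = 0.255), which did not pass. With the 11 arrays it was higher by 0.97 (SE 0.16, adjusted p = 0.00582), or 1.96-fold. After light the genotypes differed by -0.22 (95% interval -0.73 to 0.29, adjusted p = 0.569). The light effects of the genotypes differed by -0.89 (SE 0.33, adjusted p = 0.27) with 12 arrays, and by -1.19 (SE 0.22, adjusted p = 0.0239) with 11. PORB was the only one of the 6 genes for which that difference passed in either fit. The calls with 11 arrays rest on 2 arrays of rb10 in the dark, whose spread is estimated together with that of the remaining groups. They also follow the choice to leave out an array that read like WT in the dark for PORB itself.

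LHB1B2 (AT2G34420) encodes an LHCB1 protein, of the main antenna of photosystem II. Arabidopsis has several nearly identical LHCB1 genes, and whether these probes also bind the other copies is not given. LHB1B2 read 11.07, 11.55 and 11.27 in rb10 after light, and 9.40, 10.23 and, on the doubted array, 11.17 in rb10 in the dark. It read 11.07, 10.91 and 11.19 in WT after light and 10.90, 10.59 and 11.22 in WT in the dark. The 3 arrays labelled rb10 dark thus spread over 0.88 (SD), while the SD was 0.24 in rb10 after light, 0.14 in WT after light and 0.32 in WT in the dark. Without the doubted array the SD in rb10 in the dark was still 0.59, above that of every other group. With 12 arrays no comparison passed for this gene. The light difference in rb10 was 1.03 (SE 0.35, adjusted p = 0.12) and the genotype difference in the dark -0.64 (SE 0.35, adjusted p = 0.422). With the 11 arrays LHB1B2 rose with light in rb10 by 1.48 (SE 0.26, adjusted p = 0.00758), or 2.79-fold. In the dark it was then lower in rb10 than in WT by -1.09 (SE 0.26, adjusted p = 0.0279), or 2.12-fold. Both calls rest on 2 unlike arrays of rb10 in the dark, with an SE pooled from groups of smaller spread. The light difference in WT was 0.15 (95% interval -0.62 to 0.93), and the genotypes differed after light by 0.24 (95% interval -0.54 to 1.02). The difference of the light effects, 0.88 (SE 0.50) with 12 arrays and 1.33 (SE 0.35, adjusted p = 0.101) with 11, did not pass.

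LHCB4.1 (AT5G01530) encodes a form of CP29, a minor antenna protein that links the main antenna to the core of photosystem II. It read 9.44, 9.71 and 9.54 in rb10 after light, and 9.53, 9.60 and, on the doubted array, 10.14 in rb10 in the dark. It read 9.95, 10.04 and 10.16 in WT after light and 9.98, 9.94 and 10.16 in WT in the dark. Apart from the doubted array, every rb10 array lay below every WT array in both conditions. After light it differed by -0.48 (SE 0.16, adjusted p = 0.0551), just outside the threshold with 12 arrays, and with 11 it was lower in rb10, again at -0.48 (SE 0.11, adjusted p = 0.00958). It passed as well when only the light groups were fitted (adjusted p = 0.0323) and with equal array medians (-0.63, adjusted p = 0.0301). Of the 19 alternatives it passed in only 6, that of the 11 arrays included. In the rest it did not pass, with an adjusted p of up to 0.154. In the dark the difference was -0.27 (SE 0.16, adjusted p = 0.452), and with the 11 arrays rb10 was lower, at -0.46 (SE 0.12, adjusted p = 0.0432). Light differences were small in rb10 at -0.19 (95% interval -0.54 to 0.16), or 0.00 (95% interval -0.27 to 0.27) with the 11 arrays, and in WT at 0.02 (95% interval -0.32 to 0.37). The second CP29 gene LHCB4.2, singled out after its values were seen, read 11.97 to 12.02 in rb10 after light and 11.80 to 11.84 in WT after light. Its difference there was 0.18 (SE 0.09, adjusted p = 0.202), of the opposite sign to that of LHCB4.1, and in the dark -0.02 (SE 0.09).

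RCA (AT2G39730) encodes Rubisco activase, which frees Rubisco's active sites of bound sugar phosphates. It read 10.69, 10.68 and 10.57 in rb10 after light and 9.79, 10.13 and 9.87 in rb10 in the dark. It read 10.18, 10.06 and 10.27 in WT after light and 9.68, 9.59 and 9.71 in WT in the dark. The rb10 light arrays stood above all others and the WT dark arrays below all others, while rb10 dark and WT light overlapped. RCA rose with light in rb10 by 0.72 (SE 0.11, adjusted p = 0.00247), or 1.65-fold, under all 19 alternatives. It rose in WT by 0.51 (SE 0.11, adjusted p = 0.018), or 1.42-fold. The WT call was lost without WT light replicates 1 or 3 or WT dark replicates 1 or 2 (0.46 to 0.52, adjusted p from 0.0506 to 0.075). After light RCA was higher in rb10 than in WT by 0.48 (SE 0.11, adjusted p = 0.0129). That call was lost without WT light replicate 2 (0.43, adjusted p = 0.0505) and with array medians made equal (0.33, adjusted p = 0.0609). In the dark the genotypes differed by 0.27 (SE 0.11, adjusted p = 0.304), with no overlap between their arrays, and by 0.30 (SE 0.12, adjusted p = 0.166) with the 11 arrays. The light effects of the genotypes differed by 0.21 (SE 0.16, adjusted p = 0.645).

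**Figure D2:**
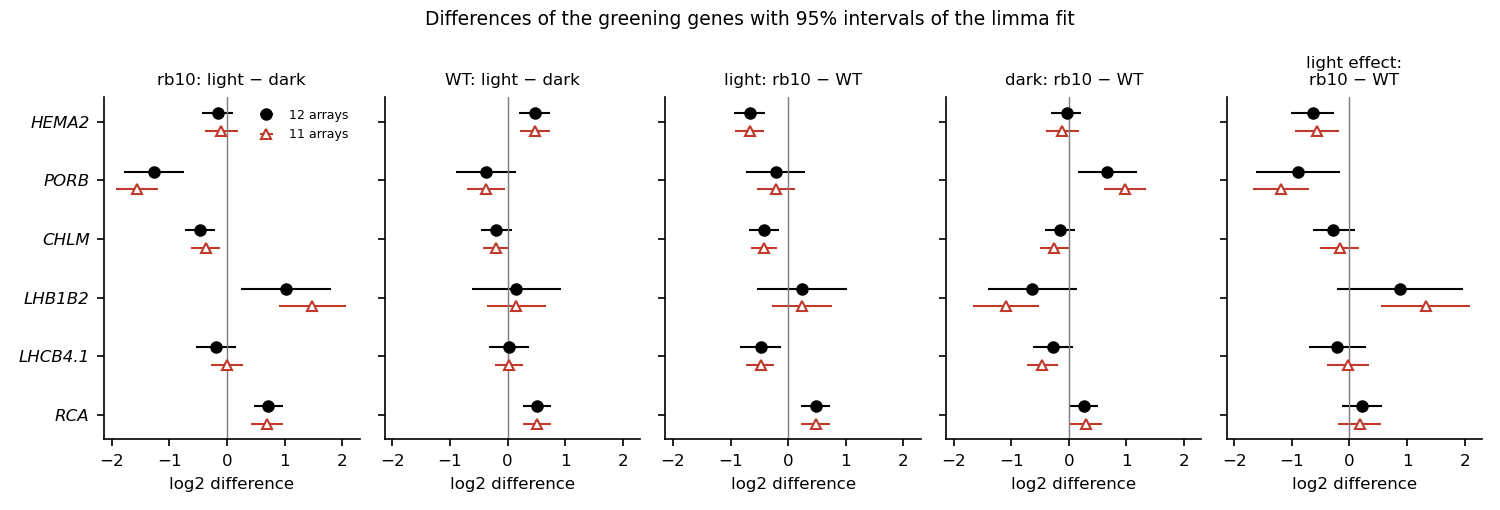
Log2 differences of the 6 genes with 95% intervals of the limma fit in 5 comparisons, from 12 arrays (black circles) and from the 11 arrays without the one labelled rb10 dark replicate 3 (open triangles). For PORB the dark difference between rb10 and WT is 0.67 with 12 arrays and 0.97 with 11, and for LHB1B2 it is -0.64 and -1.09.

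The counts for the 6 genes are given with the shares of all probe sets that passed. With light in rb10, 1 rose and 2 fell, where 3.42% of all probe sets rose and 3.75% fell, and with the 11 arrays 2 rose and 1 fell, where 3.17% rose and 3.16% fell. With light in WT, 2 rose and 0 fell, where 4.62% rose and 2.27% fell, and with the 11 arrays the counts were again 2 and 0, where 5.3% rose and 3.47% fell. In rb10 against WT after light, 1 was higher and 2 were lower, where 9.72% of all probe sets were higher and 9.47% lower. With the 11 arrays 1 was higher and 3 were lower there, where 11.8% were higher and 11.8% lower. In the dark 0 of the 6 passed in limma with 12 arrays, where 0.00572% of all probe sets were higher and 0% lower, and 2 of the 6 (PORB and RCA) had an unadjusted p under 0.05. With the 11 arrays 1 was higher and 2 were lower, where 5.68% were higher and 4.39% lower. For the difference of the light effects 0 passed with 12 arrays, where 0.503% were higher and 1.67% lower, and 2 (HEMA2 and PORB) had an unadjusted p under 0.05. With the 11 arrays 1 passed as lower, where 0.589% were higher and 1.66% lower. All shares here are at the adjusted threshold, and none is given at an unadjusted p under 0.05. The unadjusted counts in the dark and for the difference of the light effects therefore have no share to be set against. The median over the 6 genes was -0.18 for light in rb10, 0.09 for light in WT, -0.32 for genotype after light and -0.09 for genotype in the dark. Over all probe sets the medians of these comparisons were -0.026, -0.059, -0.016 and -0.02. With the 11 arrays the median over the 6 genes was -0.05 for light in rb10 and -0.18 for genotype in the dark. Over all probe sets these 11-array medians were -0.021 and -0.03. Equal array medians moved the median of all probe sets for genotype after light to -0.166, with 1160 probe sets then higher and 2656 lower in rb10, against 1700 higher and 1655 lower as deposited.

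**Figure D3:**
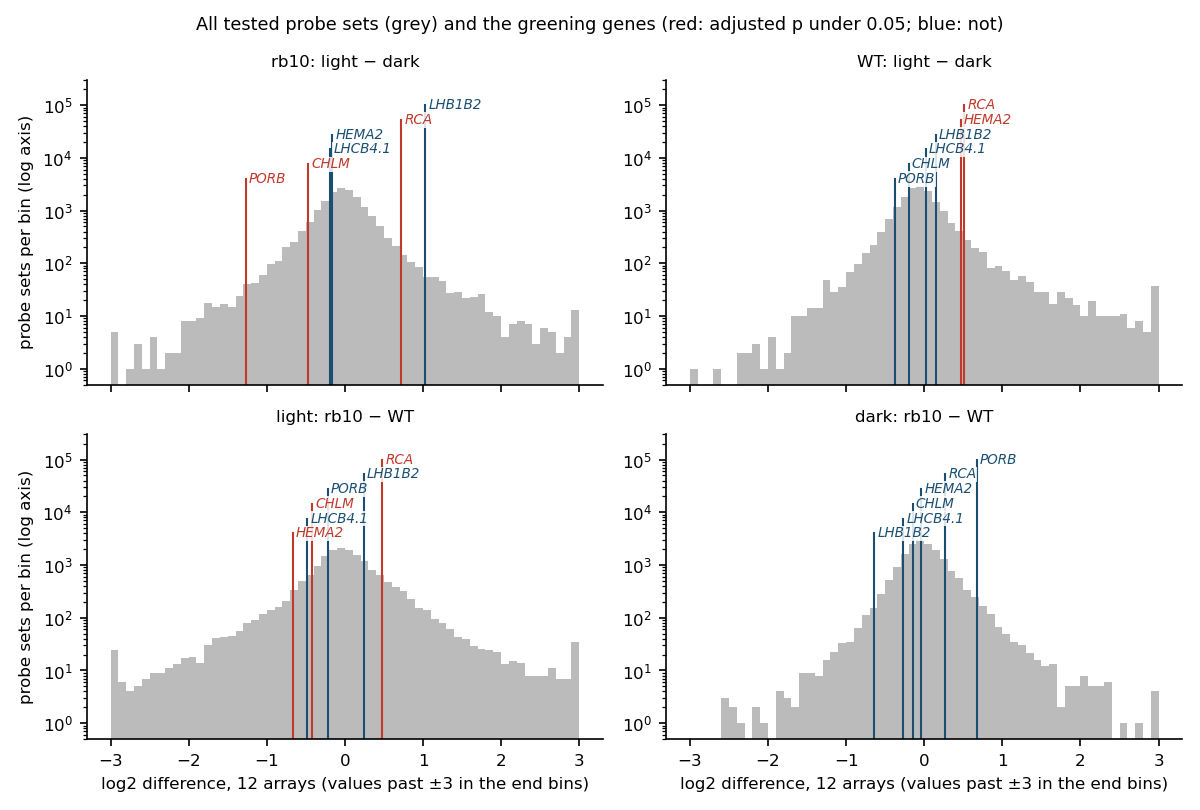
Number of probe sets (log axis) by log2 difference in 4 comparisons from 12 arrays, with each of the 6 genes as a vertical line, red where its adjusted p was under 0.05. In rb10 after light against dark, PORB at -1.27 and LHB1B2 at 1.03 lie in the outer parts of the distribution.

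Of 132 listed genes of greening 21 could be paired, these 6 and 15 others. Among the 8 measured genes of chlorophyll and tetrapyrrole synthesis (HEMA2, HEMA3, GSA1, HEME1, HEME2, CHLM, PORB and GGR), GGR (AT1G74470) was also higher in rb10 after light. It encodes geranylgeranyl reductase, which makes the phytyl tail of chlorophyll, and read 12.07, 12.04 and 11.98 in rb10 and 11.52, 11.14 and 11.16 in WT. The difference was 0.76 (SE 0.18, adjusted p = 0.0131), so that 1 of the 8 genes was higher and 2 were lower after light, where 9.72% of all probe sets were higher and 9.47% lower. The 1 of 8 is near the share over all probe sets. In the dark GGR was 0.49 higher (SE 0.18, adjusted p = 0.27), and with the 11 arrays 0.66 (SE 0.16, adjusted p = 0.0343). Of the 4 measured antenna genes (LHB1B2, LHCB4.1, LHCB4.2 and LHCB4.3) 0 passed in each of the 5 comparisons in limma with 4 group means, the default prior and all 12 arrays as deposited. Of all probe sets 9.72% were higher and 9.47% lower for genotype after light, and smaller shares passed in the other comparisons. The 0 of 4 is thus near the share over all probe sets. At an unadjusted p under 0.05 there were 2 antenna genes for light in rb10 (LHB1B2 and LHCB4.2), 1 for genotype after light (LHCB4.1) and 0 in the other comparisons. No share of all probe sets is given at that threshold. Besides the LHCB4.1 calls given above, LHCB4.1 passed after light when eBayes used a prior both trended and robust (adjusted p = 0.0245) and with the lowest 25% of probe sets left out (adjusted p = 0.0402). LHCB4.2 passed with that prior for light in rb10 (0.21, adjusted p = 0.0494) and for genotype after light (0.18, adjusted p = 0.0483).

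All 3 measured Calvin cycle genes (RCA, PRK and SBPASE) were higher in rb10 after light, where 9.72% of all probe sets were higher. The list held 20 genes, so most of the cycle was not measured. With equal array medians RCA (0.33, adjusted p = 0.0609) no longer passed, nor did PRK, as given below. SBPASE (AT3G55800), sedoheptulose-bisphosphatase of the regeneration phase, read 9.96, 10.18 and 9.95 in rb10 and 8.75, 8.77 and 8.85 in WT. It was higher by 1.24 (SE 0.20, adjusted p = 0.00204), or 2.36-fold. PRK (AT1G32060), phosphoribulokinase, which makes Rubisco's substrate, read 8.76, 8.34 and 8.51 in rb10 and from 7.78 to 8 in WT. It was higher by 0.62 (SE 0.18, adjusted p = 0.0383), a call lost with equal array medians (0.47, adjusted p = 0.0812), with quantile normalization repeated (0.53, adjusted p = 0.0595) and without any one of 7 arrays (all 3 WT light arrays, rb10 light replicates 1 and 3, rb10 dark replicate 1 and WT dark replicate 2, at 0.51 to 0.66 and adjusted p from 0.0506 to 0.126). The PRK call was also lost with every probe set tested (adjusted p = 0.0511). SBPASE rose with light in rb10 by 0.77 (SE 0.20, adjusted p = 0.0404), and by 0.51 (SE 0.13, adjusted p = 0.046) with the 11 arrays. The 12-array call was lost without any one of the rb10 light or WT light arrays or of WT dark replicates 1 and 3 (0.70 to 0.81, adjusted p from 0.0527 to 0.139). It was also lost when only the rb10 groups were fitted (adjusted p = 0.164) and with every probe set tested (adjusted p = 0.0576). In the dark SBPASE was 0.77 higher in rb10 (SE 0.20, adjusted p = 0.242), and 1.04 higher with the 11 arrays (SE 0.13, adjusted p = 0.00108). The doubted array read 8.72 for SBPASE, against 9.54 and 9.51 on the others labelled rb10 dark and 8.28 to 8.63 in WT in the dark.

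Of the 5 measured genes of the photosystems and electron transport (PSAE-1, PSAN, PSBW, PSBY and ATPC1), 1 rose with light in rb10. This was PSBY, a small protein of photosystem II, by 0.53 (SE 0.12, adjusted p = 0.0192), with 8.66, 8.81 and 8.67 in rb10 after light and 8.20, 8.08 and 8.28 in the dark. The PSBY call was lost without rb10 light replicate 2 or rb10 dark replicates 1 or 2 (0.47 to 0.53, adjusted p from 0.0515 to 0.0803) and when only the rb10 groups were fitted (adjusted p = 0.0724). With light in WT the smallest p of that list was that of PSBW (0.30, SE 0.12, adjusted p = 0.221). For genotype after light it was that of PSBY (0.32, SE 0.12, adjusted p = 0.0798), and in the dark that of PSBW (0.20, SE 0.12, adjusted p = 0.47). The 1 measured regulator, HYH, a bZIP factor related to HY5, rose with light by 2.90 (SE 0.18) in rb10 and by 2.79 (SE 0.18) in WT, and differed between genotypes after light by 0.14 (SE 0.18). No gene of carotenoid synthesis or chlorophyll breakdown was among those paired. Over the 15 genes other than the 6, 3 rose and 0 fell with light in rb10, 1 rose and 0 fell in WT, and 3 were higher and 0 lower in rb10 after light. Of all probe sets 3.42% rose and 3.75% fell with light in rb10, 4.62% rose and 2.27% fell in WT, and 9.72% were higher and 9.47% lower in rb10 after light, so the 1 of 15 in WT is near the share over all probe sets.

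**Figure D4:**
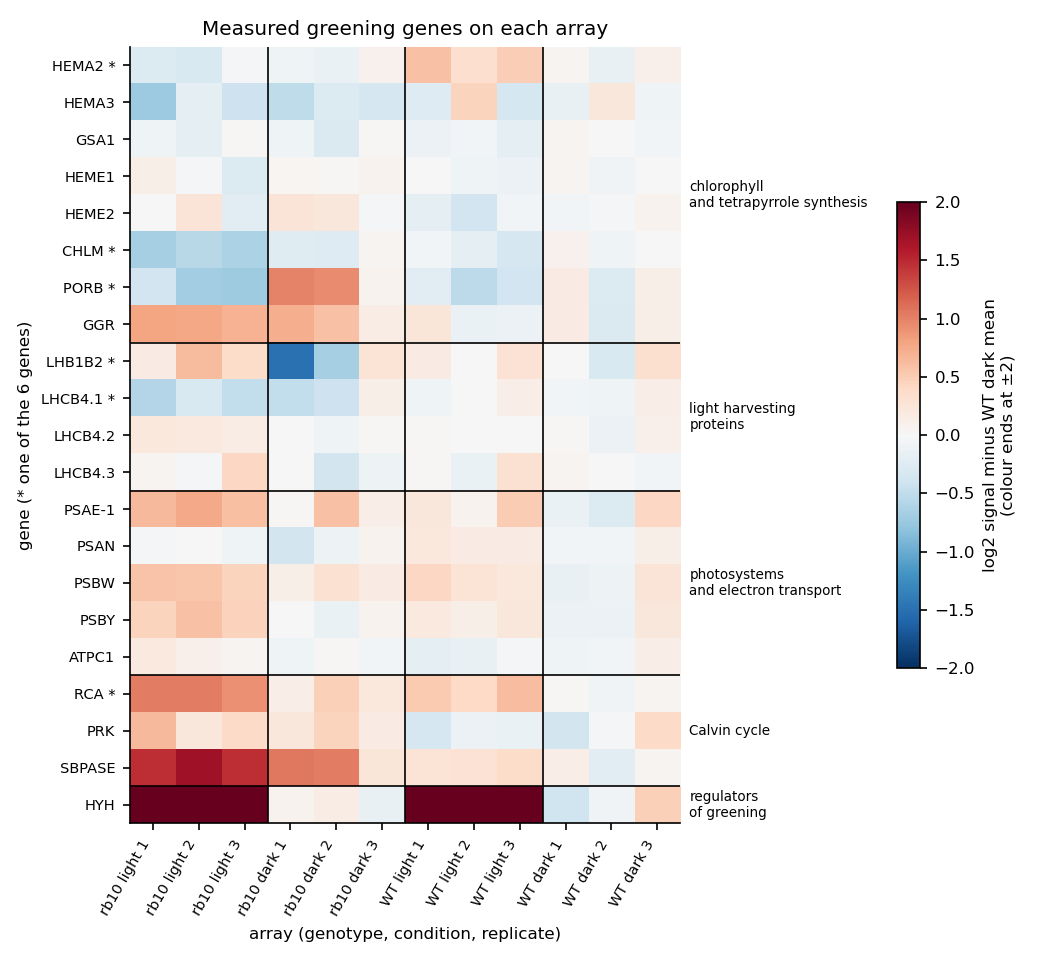
Log2 signal of the 21 measured greening genes on each array minus the gene's mean in WT in the dark, by pathway, with the 6 genes marked by an asterisk; the colour scale ends at ±2, which HYH passes after light. SBPASE, GGR and PORB are raised on rb10 dark replicates 1 and 2, whereas the array labelled rb10 dark replicate 3 stays between -0.33 and 0.27 for all 21 genes. Other genes, such as HEMA2, CHLM and HEME1, stay in that range on replicates 1 and 2 as well.

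The genes whose log2 signal was most like that of each of the 6, among probe sets paired with 1 gene, were found by Pearson's r over the 12 arrays. These arrays fall into the 4 groups and share their normalization, and r is given as a description. HEMA2 was most like AT1G32928 (0.959), AT4G30390 (0.945) and AT1G42980 (0.944). PORB was most like AT2G04500 (0.945), DRT101 (0.941) and bZIP52 (0.924). For CHLM these were AT1G03140 (0.971), AT3G18320 (0.966) and AT2G44410 (0.961). For LHB1B2 they were AT1G43860 (0.922), AT3G13275 (0.908) and AT5G24460 (0.907). LHCB4.1 was most like AT3G15780 (0.969), AT1G64380 (0.963) and AT1G06148 (0.963), and RCA most like AT5G57345 (0.971), AT5G59050 (0.968) and ATSK12 (0.968). With the 11 arrays the nearest gene became AT1G55960 (0.924) for LHB1B2 and ATSK12 (0.983) for RCA, and some lower places changed as well. None of the 6 genes was among the 3 nearest of another, where only the highest positive r counted. As only 3 places among all probe sets paired with 1 gene were read, this does not show whether the 6 genes move together. Between pairs of the 6, r over the 12 arrays ran from -0.886 (CHLM with RCA) to 0.716 (CHLM with LHCB4.1).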

How the data were processed

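The authors deposited log2 signal for each probe set. RMA and GCRMA are named, per the submitters' processing notes, but not their versions or which of them was applied. The log2 scale was taken from the range of the values, 1.26 to 14.14, and they were used as deposited. Array signal gives no counts, so the number of arrays limits the precision.

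Probe sets were named through gene IDs in the platform annotation and symbols of TAIR10.1. Of 38408 probe sets 16722 had 1 gene, 759 several and 20927 none. The 17481 with a gene were tested without a filter. The deposited files state no build, so no coordinates are given, and sequences were not used here.

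The 4 group means were fitted over 12 arrays by lmFit, contrasts.fit and eBayes of limma 3.58.1 (R 4.3.3), with 8 residual and 2.79 prior degrees of freedom. The labels call the samples biological replicates and do not say that cultures were separate, so p-values cover only the spread between the samples, which may be technical. Figures were drawn with matplotlib 3.10.9.

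The genes, lists and tests were chosen with earlier results of these data known. Named were the 6 genes, each listed gene that passed in a comparison or else the one with the smallest p of its list, and the 3 nearest genes of each of the 6. LHCB4.2 was added after its values were seen. Alternatives were a replicate block, only the compared groups in the fit, repeated quantile normalization, equal array medians, a filter removing the lowest 25% of signals, testing every probe set, a prior both trended and robust, and leaving out each array in turn.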

Additional observations from a re-analysis of the deposited data

How the results depend on the processing

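Each single value of the 6 genes kept its sign under every alternative, except near 0 when 1 array was left out: LHB1B2 (0 to 0.31) and LHCB4.1 (-0.03 to 0.09) for light in WT, and HEMA2 (-0.12 to 0.01) for genotype in the dark. Other greening genes that turned were LHCB4.2 (-0.06 to 0.05) and LHCB4.3 (-0.05 to 0.17) for light in WT, LHCB4.2 (-0.08 to 0.03) and HYH (-0.18 to 0.26) for genotype in the dark and HYH (-0.12 to 0.32) for the difference of light effects. LHCB4.2 for light in WT was 0 with repeated quantile normalization, and HYH for genotype was -0.03 in the dark with that setting, -0.05 in the dark and -0.01 after light with equal array medians.

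The number of the 6 genes that passed was 1 for light in rb10 with only those groups in the fit, and 1 for light in WT with only those groups, with repeated quantile normalization and with every probe set tested. Leaving out 1 array gave 2 to 3 for light in rb10, 0 to 2 for light in WT, 1 (without WT light replicate 2) to 4 for genotype after light, 0 to 3 for genotype in the dark and 0 to 1 for the difference of light effects. The highest values of the last 3 came without the array labelled rb10 dark replicate 3. Of all probe sets, leaving out 1 array gave 782 to 1154 for light in rb10, 839 to 1534 for light in WT, 2141 to 4120 and 0 to 1761 for genotype after light and in the dark, and 208 to 394 for the difference. Testing every probe set gave 2210, 2289, 6251, 0 and 597, against 1254, 1204, 3355, 1 and 380 in the same order, with 38408 tested in place of 17481. For light in rb10, 580 passed with only those groups in the fit. For genotype in the dark, 0 passed with a replicate block, with only those groups and with a trended and robust prior. With equal array medians 30.4% of the calls for genotype after light were higher in rb10, against 50.7% as deposited, and HEMA2, CHLM and LHCB4.1 were then lower by the test while RCA no longer passed.

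The replicate numbers did not pair the samples, with correlations of same-numbered deviations from -0.022 to 0.073. With the replicate block CHLM no longer passed for light in rb10 (adjusted p = 0.0682) or for genotype after light (adjusted p = 0.0514), and LHCB4.1 passed after light (adjusted p = 0.0417). The block also ended the calls of PRK after light (adjusted p = 0.058) and of SBPASE for light in rb10 (adjusted p = 0.0609). None of the 6 genes had a second probe set, so that alternative was not run. The causes were not tested.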
